A study of Mus musculus with 6 samples.

Results

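Replacement histones are variants that take the place of the canonical histones made during DNA replication. Their genes are transcribed also outside S phase. They were described in muscle satellite cells (SCs) of mice with a conditional NF-YA deletion and of their controls. The 8 genes were chosen by name among the 35976 genes of the files: H2afx, H2afz, H2afv, H2afj, H2afy, H2afy2, H3f3a and H3f3b. All 8 had enough counts to be tested. The data were RNA-seq libraries of total RNA from SCs cultured in growth medium, 3 from NF-YA cKO and 3 from NF-YA fl/fl mice. Mice of both groups carried floxed NF-YA alleles and were given tamoxifen, at an age of 5 to 7 weeks per the labels. In NF-YA cKO mice tamoxifen activated a Cre recombinase made in Pax7-expressing cells, so that cells which never made Pax7 kept the gene, whereas NF-YA fl/fl mice had no Cre. Before culture, SCs were enriched by depleting cells that bear CD31, CD45, CD11b or Sca1.

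A nucleosome holds pairs of H2A, H2B, H3 and H4. The canonical genes lie in clusters and their mRNA is made in S phase, mostly without a poly(A) tail. The variant genes stand apart and are, as a rule but not all to the same degree, transcribed through the cell cycle. H3.3 (H3f3a and H3f3b) is placed at active genes by HIRA and at silent repeats by DAXX and ATRX. H2A.Z (H2afz and H2afv) marks the nucleosomes beside gene starts, H2AX (H2afx) is phosphorylated next to DNA breaks, and macroH2A (H2afy and H2afy2) carries a large extra macrodomain. NF-Y is a trimer that binds the CCAAT box of promoters, and NF-YA is the subunit that reads the sequence.

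H2afy makes more than one protein. Its pre-mRNA holds a pair of mutually exclusive exons in the macrodomain, and macroH2A1.1, but not macroH2A1.2, binds ADP-ribose. Either is exon 6 of 9 in its transcript and is coding, on the minus strand of chromosome 13 (GRCm38). The macroH2A1.1 exon of 91 nt lies at chr13:56088252-56088342, and the macroH2A1.2 exon of 100 nt at chr13:56089758-56089857. They are printed because the reads that tell the forms apart come from these letters. Capitals mark the alternative exon, and the 20 nt in lower case on each side belong to the neighbouring exons, which both forms share.
macroH2A1.1: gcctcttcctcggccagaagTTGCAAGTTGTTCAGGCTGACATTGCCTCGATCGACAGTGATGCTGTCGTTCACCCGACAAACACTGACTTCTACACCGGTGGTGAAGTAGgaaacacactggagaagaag
macroH2A1.2: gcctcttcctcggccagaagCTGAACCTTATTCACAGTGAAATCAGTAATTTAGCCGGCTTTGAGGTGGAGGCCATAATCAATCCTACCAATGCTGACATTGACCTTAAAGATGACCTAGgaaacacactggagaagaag

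The CCAAT box was searched for as CCAAT or, for the other strand, ATTGG, in the 250 bases before the RefSeq start of each gene (GRCm38.p6). Promoters were matched for 7 of the 8 genes, all but H2afx. H3f3b and H2afv each held 4 matches, H2afj held 3, H2afz held 2, H3f3a held 1, and H2afy and H2afy2 held 0. The gene coordinates given below are from another annotation, GENCODE. The windows of H3f3b, H3f3a, H2afy and H2afy2 lie inside those coordinates, so their numbers of matches depend on the start used. Over 32851 promoters of the same length, 33.85% held 1 or more, 10.1% held 2 or more, 2.79% held 3 or more and 0.840% held 4 or more. The promoters with most matches and that of H2afz, the most abundant variant in NF-YA cKO, are printed 5′ to 3′ along the strand of the gene, with the matches in capitals. H3f3b is from chr11:116024505-116024754 on the minus strand, H2afv from chr11:6444444-6444693 on the minus strand, and H2afz from chr3:137864237-137864486 on the plus strand.
H3f3b: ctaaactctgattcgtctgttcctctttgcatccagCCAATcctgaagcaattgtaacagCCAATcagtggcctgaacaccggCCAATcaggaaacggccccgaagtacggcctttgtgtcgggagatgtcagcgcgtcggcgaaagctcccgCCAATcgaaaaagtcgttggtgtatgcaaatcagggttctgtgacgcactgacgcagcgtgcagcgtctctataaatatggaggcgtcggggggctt
H2afv: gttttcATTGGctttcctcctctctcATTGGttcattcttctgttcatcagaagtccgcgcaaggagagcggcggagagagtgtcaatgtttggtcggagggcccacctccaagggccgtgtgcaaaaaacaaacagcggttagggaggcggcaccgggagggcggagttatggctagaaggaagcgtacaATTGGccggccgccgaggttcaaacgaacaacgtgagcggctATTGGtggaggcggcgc
H2afz: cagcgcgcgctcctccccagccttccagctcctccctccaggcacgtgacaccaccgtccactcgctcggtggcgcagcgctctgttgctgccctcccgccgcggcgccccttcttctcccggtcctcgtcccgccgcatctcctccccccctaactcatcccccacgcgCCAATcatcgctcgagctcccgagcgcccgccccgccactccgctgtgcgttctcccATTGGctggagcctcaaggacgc
The boxes of H3f3b all read CCAAT and begin 214, 190, 167 and 97 bases before the start. Those of H2afv all read ATTGG and begin 244, 224, 59 and 17 bases before it. Of the 7 matched genes, H3f3b (4 matches), H2afj (3), H2afz (2) and H2afy (0) passed the test described below. H2afv (4), H3f3a (1) and H2afy2 (0) did not. A link between matches and change was not tested. A match is a description of these letters and not a site shown to be bound.

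Total expected counts per library ranged from 26936230 to 41118984, and the lowest count of a variant gene in a library was 287. The transcript entry that the authors added for the deleted NF-YA allele took 27.2% to 40.6% of the Nfya TPM (expression scaled by transcript length) in NF-YA cKO and was listed at 0 in NF-YA fl/fl. The remaining Nfya TPM in NF-YA cKO was thus assigned to the other Nfya entries. Summed over all entries Nfya was at 27, 28.5 and 27 CPM in the NF-YA cKO libraries and 23.4, 25.7 and 36.9 CPM in the NF-YA fl/fl libraries, with overlap. The libraries also differed beyond the deletion. Xist was at 836 to 852 CPM (counts scaled to library size) in NF-YA cKO and 0.306 to 0.475 CPM in the NF-YA fl/fl libraries, and the Y-linked Ddx3y at 0.0470 to 0.0957 against 80.9 to 88.6 CPM, so sex and genotype cannot be told apart. Pax7, which defines SCs, was present in all libraries, at 171 ± 28.4 CPM (SD, n = 3) in the NF-YA cKO libraries and 88.7 ± 15.8 CPM (n = 3) in the NF-YA fl/fl libraries. The list of 10 SC and myoblast genes that holds Pax7 went the other way in sum, at 2250 to 2502 CPM against 3013 to 5123 CPM. All 10 tested markers of differentiating myocytes were lower in NF-YA cKO, with a summed level of 634 to 1422 CPM against 43820 to 53000 CPM, most of it from Ttn, the titin gene. Of 11 tested markers of macrophages and leukocytes 10 were higher, with a summed level of 146 to 286 CPM against 5.87 to 16 CPM, led by Lyz2, a lysozyme. Of 12 proliferation genes 11 were higher, with a summed level of 2437 to 2599 CPM against 854 to 1514 CPM. In these lists 0 markers were at 0 in all libraries. The counts of markers higher or lower are of genes that passed the test described below. Of all genes tested, 10.3% passed it as higher and 9.97% as lower. How much sex, differentiation, other cells or proliferation took part in the results below was not tested.

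To ask how the variants differed between genotypes, all 17348 genes that passed a filter on low counts were fitted with edgeR's quasi-likelihood test. A gene passed at a false discovery rate (FDR, Benjamini-Hochberg) under 0.01, and was called where its log2 fold change was also above 1 or below -1. Of the 8 variant genes, 5 passed as higher in NF-YA cKO, namely H2afx, H2afz, H2afj, H2afy and H3f3b, against 10.3% of all genes tested. H2afx, H2afz and H2afj were called, against 4.65% of all genes. In the other direction 0 variant genes passed in edgeR, 0 were lower at an unadjusted p under 0.05 and 0 were lower in DESeq2, while 9.97% of all genes passed as lower. In 7 of the 8, all but H2afv, every NF-YA cKO library lay above every NF-YA fl/fl library in CPM, which held for 29.1% of all genes. Over the 8 genes the median log2 fold change was 0.64, and over all genes tested it was -0.02. In bulk RNA, a change in the mix of cells and a change in the RNA per cell cannot be told apart.

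**Figure D1:**
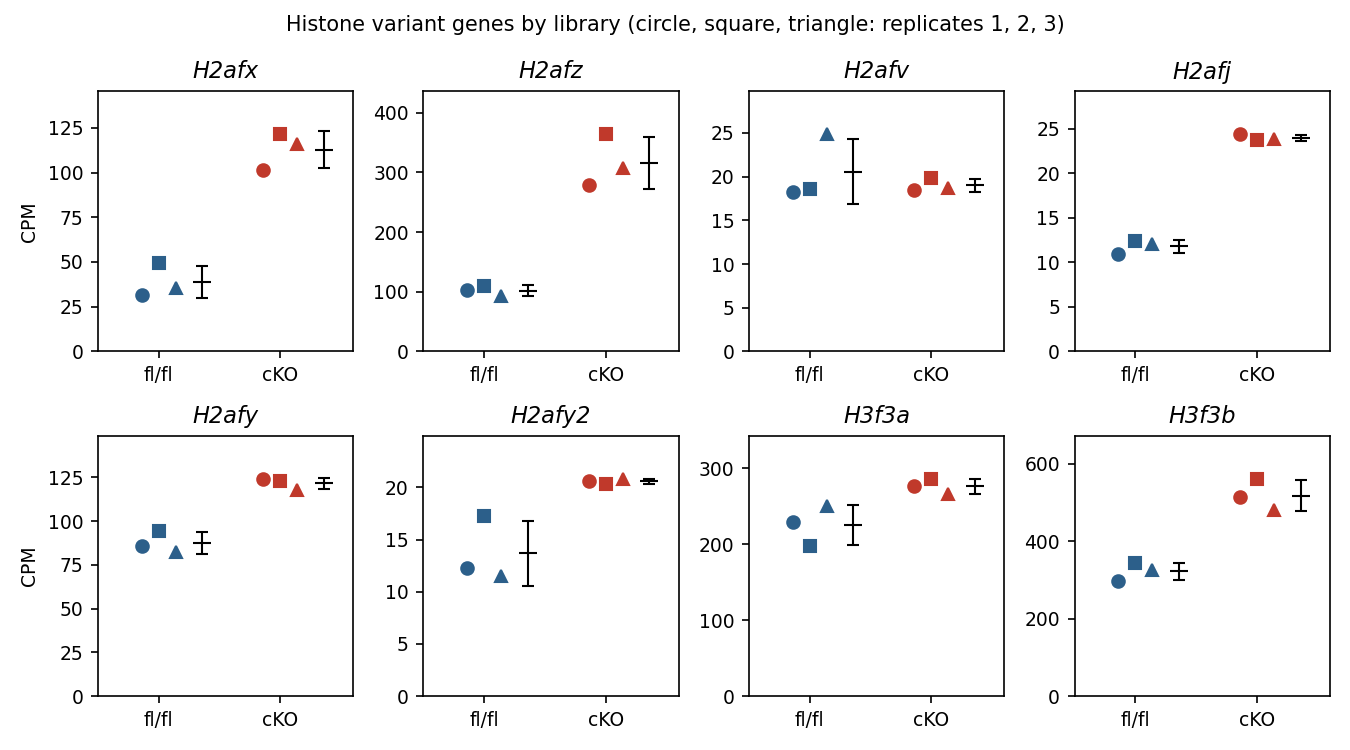
Level of each histone variant gene in CPM (vertical axes, each from 0) in the 3 NF-YA fl/fl libraries (blue) and the 3 NF-YA cKO libraries (red), with the mean and SD in black. The genotypes overlap for H2afv, and for the other genes all red points lie above all blue ones.

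H2afx and H2afz had the largest differences among the 8 genes, near 3-fold. H2afx (chr9:44334694-44336077, plus strand, GRCm38) encodes H2AX. Its level was 101, 121 and 116 CPM in the NF-YA cKO libraries and 31.7, 49.2 and 35.5 CPM in the NF-YA fl/fl libraries. The lowest NF-YA cKO library was thus above the highest NF-YA fl/fl library, and replicate 2 was the highest of both genotypes. The log2 fold change was 1.54 (SE 0.18, FDR = 0.00128 in edgeR), 2.91-fold. Without NF-YA cKO replicate 2 the gene no longer passed, at a log2 fold change of 1.45 and an FDR of 0.0107. In that fit 223 of all genes passed as higher, against 1787 with all libraries.

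H2A.Z is made from H2afz and H2afv, whose proteins are nearly the same. Of the pair, H2afz passed and H2afv did not. H2afz (chr3:137864487-137866922, plus strand) was measured at 278, 363 and 307 CPM in the NF-YA cKO libraries and 103, 110 and 92.9 CPM in the NF-YA fl/fl libraries. These groups were far apart. The spread was wider in NF-YA cKO by CPM (SD 43.4 against 8.52) and narrower by TPM (SD 19.6 against 36.1, n = 3 each). The log2 fold change was 1.63 (SE 0.13, FDR = 0.000358 in edgeR), 3.10-fold, and H2afz passed in all 18 alternative settings. H2afv (chr11:6427229-6444443, minus strand) was measured at 18.5, 19.9 and 18.7 CPM in the NF-YA cKO libraries and 18.2, 18.6 and 24.8 CPM in the NF-YA fl/fl libraries. The groups overlapped, and a single fl/fl library, replicate 3, stood above the rest. Its log2 fold change of -0.11 (SE 0.15, FDR = 0.581 in edgeR) turned to 0.04 without that library.

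The makeup of the pair was compared next. By TPM, the share of H2afv in H2A.Z mRNA was 3.93%, 3.25% and 3.61% in NF-YA cKO and 9.83%, 9.43% and 14.2% in NF-YA fl/fl. The groups did not overlap, and the means were 3.60% ± 0.341 and 11.2% ± 2.63 (SD, n = 3 each; exact two-sided permutation test, p = 0.1, adjusted p = 0.167 over 5 shares). With 3 libraries against 3, 0.1 is the smallest p this test can give. The summed TPM of H2afz and H2afv was 387 ± 19.0 in NF-YA cKO and 147 ± 37.0 in NF-YA fl/fl. As a share of expected counts, which are not scaled by length, the difference was -11.1 percentage points in place of -7.55.

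H2afj (chr6:136808244-136810074, plus strand) encodes H2A.J, a variant with a C-terminus of its own known to build up in senescent cells. It was at 24.4, 23.7 and 23.9 CPM in the NF-YA cKO libraries and 11, 12.4 and 12 CPM in the NF-YA fl/fl libraries. Libraries within each genotype were close to each other and the genotypes were apart. The log2 fold change was 1.02 (SE 0.11, FDR = 0.000913 in edgeR), 2.03-fold. It missed the threshold without NF-YA cKO replicate 2, at an FDR of 0.0102. Over the alternative settings its log2 fold change lay between 0.865 and 1.08, so that its call, which needs a value above 1, depended on the setting.

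The H3.3 genes encode the same protein and had smaller fold changes than H2afx and H2afz. H3f3b (chr11:116021912-116027962, minus strand) was measured at 513, 560 and 480 CPM in the NF-YA cKO libraries and 299, 343 and 325 CPM in the NF-YA fl/fl libraries. All NF-YA cKO libraries were higher, with a log2 fold change of 0.69 (SE 0.11, FDR = 0.00329 in edgeR), 1.61-fold. H3f3a (chr1:180800832-180813943, minus strand) was measured at 277, 286 and 266 CPM against 230, 197 and 250 CPM. The groups were separated by a narrow gap, and the log2 fold change of 0.29 (SE 0.11, FDR = 0.0760 in edgeR) did not pass. H3f3b lost its pass when any 1 NF-YA cKO library or fl/fl replicate 1 was left out, at FDR values up to 0.0264.

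The share of H3f3b in H3.3 mRNA, by TPM, was 48.2%, 49.6% and 47.6% in NF-YA cKO and 39.4%, 46.5% and 39.6% in NF-YA fl/fl. Replicate 2 of NF-YA fl/fl came close to the NF-YA cKO libraries without reaching them. The means were 48.4% ± 1.03 and 41.8% ± 4.05 (SD, n = 3 each), a difference of 6.58 percentage points (exact permutation test, p = 0.1, adjusted p = 0.167). The summed TPM of both genes was 623 ± 35.5 in NF-YA cKO and 478 ± 68.2 in NF-YA fl/fl.

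Of the macroH2A genes, H2afy rose to a small degree and H2afy2 did not pass. H2afy (chr13:56073619-56136361, minus strand) was measured at 124, 123 and 118 CPM in the NF-YA cKO libraries and 85.7, 94.4 and 82.5 CPM in the NF-YA fl/fl libraries. The genotypes were apart, with a log2 fold change of 0.47 (SE 0.09, FDR = 0.00673 in edgeR), 1.39-fold. H2afy2 (chr10:61738665-61784147, minus strand), which encodes macroH2A2, was measured at 20.6, 20.3 and 20.8 CPM against 12.3, 17.3 and 11.5 CPM. It was higher in every NF-YA cKO library by CPM, but fl/fl replicate 2 overlapped with them by TPM, and the log2 fold change was 0.59 (SE 0.17, FDR = 0.0344 in edgeR). H2afy2 passed without that library (log2 fold change 0.78, FDR = 0.00318), and H2afy lost its pass when any 1 NF-YA cKO library or fl/fl replicate 1 was left out, at FDR values up to 0.0513.

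The share of H2afy2 in macroH2A mRNA overlapped between genotypes. Its part of the TPM of the pair was 15.6%, 15.4% and 16.7% in NF-YA cKO and 14.9%, 19.4% and 15.1% in NF-YA fl/fl. Replicate 2 of NF-YA fl/fl was the highest of all libraries. The difference of -0.54 percentage points (exact permutation test, p = 1, adjusted p = 1) turned to 0.918 without fl/fl replicate 2 and to 1.07 as a share of expected counts.

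**Figure D2:**
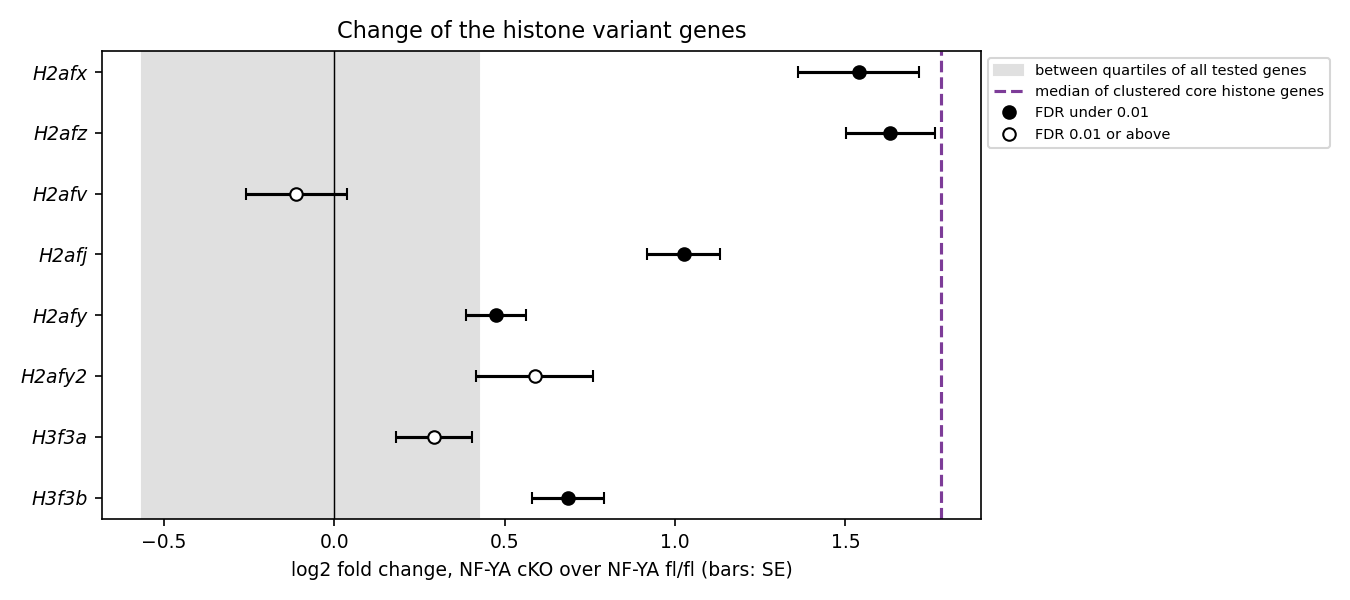
Log2 fold change of each histone variant gene in NF-YA cKO over NF-YA fl/fl with its SE (horizontal axis), filled where the FDR is under 0.01. The grey band, from -0.56 to 0.42, spans the lower to the upper quartile of all tested genes, and the dashed line at 1.78 is the median of the clustered core histone genes; H2afv and H3f3a lie within the band and the other genes right of it.

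The small rise of H2afy as a gene stood beside a larger difference in its exon forms. Each form was summed over the transcripts matched to it through RefSeq, a sum made after the data were seen. The other H2afy transcripts were not searched for either exon and are left out of these sums. MacroH2A1.1 was at 21.1, 19.7 and 21.8 CPM in the NF-YA cKO libraries and 42.3, 33.1 and 44.4 CPM in the NF-YA fl/fl libraries. MacroH2A1.2 was at 84.6, 87.2 and 75.8 CPM in the NF-YA cKO libraries and 19.3, 25.9 and 7.03 CPM in the NF-YA fl/fl libraries. The groups did not overlap for either form and lay in opposite directions, with the NF-YA cKO mean of macroH2A1.1 at 0.522 times and that of macroH2A1.2 at 4.74 times the fl/fl mean. Fitted among all transcripts, the log2 fold changes were -0.93 for macroH2A1.1 (SE 0.14, FDR = 0.0187 in edgeR) and 2.25 for macroH2A1.2 (SE 0.47, FDR = 0.0410 in edgeR), so that neither passed. DESeq2 gave FDR values of 6.34e-07 and 2.86e-05 for the same sums. In edgeR's test of transcript usage, which compares each form with the rest of the gene, neither sum passed. The FDR was 0.597 for macroH2A1.2 and higher for macroH2A1.1. Over the leave-one-out fits the lowest FDR of this usage test was 0.304 for macroH2A1.2 and 0.668 for macroH2A1.1.

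The share of macroH2A1.1 in the TPM of the forms was 20.0%, 18.5% and 22.4% in NF-YA cKO, and 68.7%, 56.2% and 86.3% in NF-YA fl/fl. Among assigned transcripts, all fl/fl libraries held more macroH2A1.1 than macroH2A1.2, and all NF-YA cKO libraries held less. In fl/fl replicate 2 the forms took 46.4% and 36.1% of all H2afy TPM, and 17.6% was not assigned. The order in that library thus depends on which exon the unassigned transcripts hold. The means were 20.3% ± 1.98 and 70.4% ± 15.1 (SD, n = 3 each), a difference of -50.1 percentage points (exact permutation test, p = 0.1, the smallest possible; adjusted p = 0.167 over 5 shares). Leaving out any 1 library kept the difference between -57.2 and -42.2 points. The alternative exons are the regions of the printed sequences in capitals, and reads from the shared exons were divided between transcripts by RSEM, a program that estimates the most likely split, so the levels of the forms are estimates. They rested on 656 to 914 expected counts of macroH2A1.1 in NF-YA cKO and 1104 to 1343 in NF-YA fl/fl, and on 2636 to 3559 and 213 to 872 of macroH2A1.2. The unassigned transcripts of 5865 and 5862 nt held 0 to 827 and 0 to 647 expected counts in the NF-YA fl/fl libraries.

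**Figure D3:**
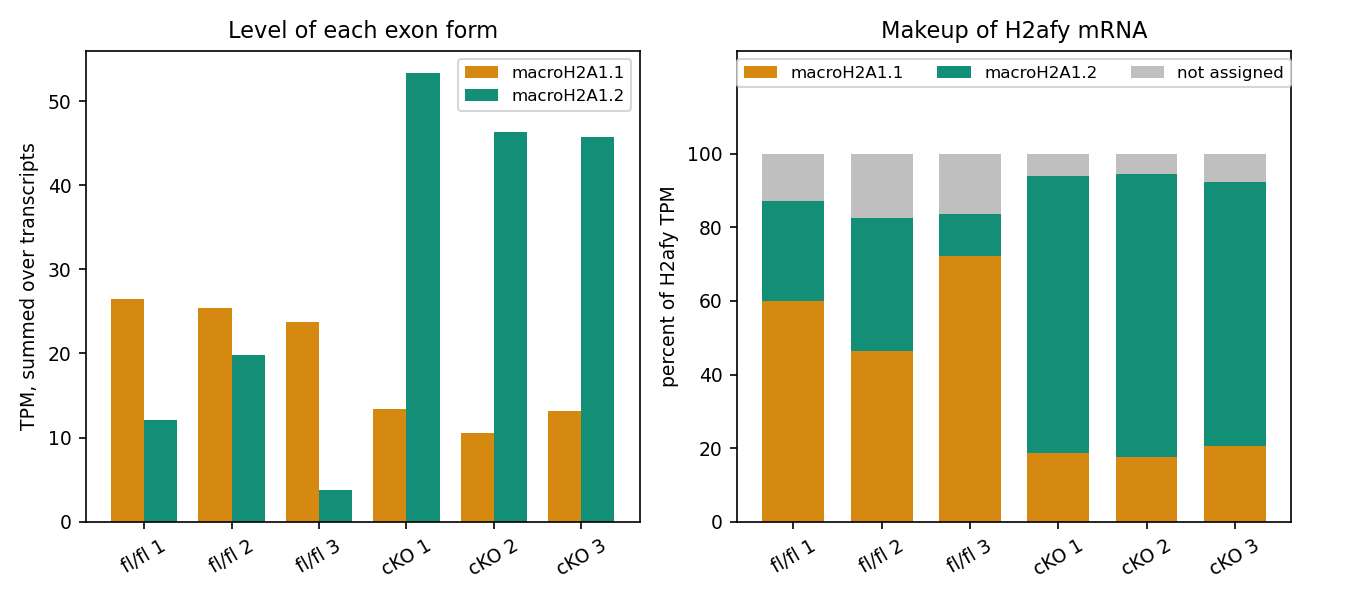
H2afy exon forms in each library: summed TPM of the macroH2A1.1 and macroH2A1.2 transcripts (left) and the percent of all H2afy TPM in each form (right). Transcripts not assigned to a form are in grey. MacroH2A1.1 takes 46.4% to 72.1% of H2afy TPM in NF-YA fl/fl and 17.5% to 20.7% in NF-YA cKO.

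The files listed 10 H2afy transcripts, of which 9 were tested. The transcripts with the macroH2A1.2 exon, of 1959 and 1962 nt, had log2 fold changes of 1.98 (SE 0.35, FDR = 0.0267 in edgeR) and 2.83 (SE 1.38, FDR = 0.283), the latter with no count in fl/fl replicate 3 and at 4 without fl/fl replicate 2. Those with the macroH2A1.1 exon, of 1953 and 1950 nt, had -1.04 (SE 0.29, FDR = 0.0857) and -0.89 (SE 0.22, FDR = 0.0603). In edgeR 0 of the 9 passed at an FDR under 0.01, where 0.611% of all transcripts passed as higher and 1.04% as lower, while 1 was higher and 3 were lower at an unadjusted p under 0.05, and DESeq2 passed 1 as higher and 2 as lower. Of the 6 transcripts not assigned to a form, which were not searched for either exon, 5 were tested. Those of 5865, 5862, 2122 and 2129 nt had log2 fold changes between -2.73 and 0.45, with FDR values of 0.629 and above, and the value of the one of 5865 nt, -2.73, lay between -11.8 and -1.72 over the leave-one-out fits, -11.8 being without NF-YA cKO replicate 2, which held its NF-YA cKO counts after rounding. The one of 2025 nt had no count in NF-YA cKO and a mean of 0.754 CPM in the NF-YA fl/fl libraries, and the one of 2125 nt was too low to test. Together the 6 made 5.56% to 7.79% of H2afy TPM in NF-YA cKO and 12.7% to 17.6% in NF-YA fl/fl. In edgeR's test of transcript usage, which compares each transcript with the rest of its gene, 0 of the H2afy transcripts passed, as against 0.760% of all transcripts tested.

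Other variant genes were made mostly as 1 transcript. H2afx, H2afj and H3f3a had 1 transcript each in the files. The main transcript of H2afz held a mean of 98.7% of the TPM of its gene in NF-YA cKO and 99.3% in NF-YA fl/fl, and that of H3f3b held 99.9% and 99.4%. The main transcript of H2afv held 91.2% ± 0.558 and 89.8% ± 6.49, with a lesser one at 6.76% ± 0.798 and 9.2% ± 6.56. H2afy2 had a pair, of which the main one held 85.0% ± 0.676 and 80.0% ± 7.62 (SD, n = 3 each). The groups overlapped for all of these.

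Levels were compared between genes by TPM, which is scaled by length. In NF-YA cKO the order was H2afz at 373 ± 19.6, H3f3a at 321 ± 21.3, H3f3b at 302 ± 16.1, H2afx at 100.4 ± 5.10, H2afy at 65.0 ± 5.49, H2afj at 15.4 ± 1.47, H2afv at 13.9 ± 0.645 and H2afy2 at 12.3 ± 1.13 TPM (SD, n = 3). The libraries of H3f3a and H3f3b overlapped, as did those of H2afj and H2afv, and the other neighbours did not. In NF-YA fl/fl the order was H3f3a at 276 ± 22.0, H3f3b at 202 ± 48.4, H2afz at 131 ± 36.1, H2afy at 44.0 ± 11, H2afx at 38 ± 16.1, H2afv at 15.8 ± 1.68, H2afy2 at 8.91 ± 3.8 and H2afj at 8.12 ± 1.84 TPM. Here neighbours overlapped in 4 places, between H3f3a and H3f3b, H3f3b and H2afz, H2afy and H2afx, and H2afy2 and H2afj. H2afz thus stood above the H3.3 genes in NF-YA cKO and below H3f3a in NF-YA fl/fl. The highest fl/fl value was that of replicate 2 for each of the 8 genes.

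The H2A variants were set beside the 19 canonical H2A genes of the clusters, whose mRNA total RNA libraries also hold. The 6 variant genes summed to 580 ± 13.2 TPM in NF-YA cKO and 246 ± 68.6 TPM in NF-YA fl/fl, and the clustered H2A genes to 3862 ± 585 and 1280 ± 560 TPM (SD, n = 3 each). Both pools were thus higher in NF-YA cKO, without overlap. Variants made 15%, 12.6% and 12% of H2A TPM in NF-YA cKO and 18.2%, 14.3% and 17.4% in NF-YA fl/fl, and the groups overlapped (difference -3.42 percentage points, exact permutation test, p = 0.2, adjusted p = 0.25). As a share of expected counts the difference was -9.36 points (exact permutation p = 0.1). Of the 60 tested core histone genes of the clusters, 51 passed as higher and 1 as lower, with a median log2 fold change of 1.78, against 0.64 for the variant genes.

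**Figure D4:**
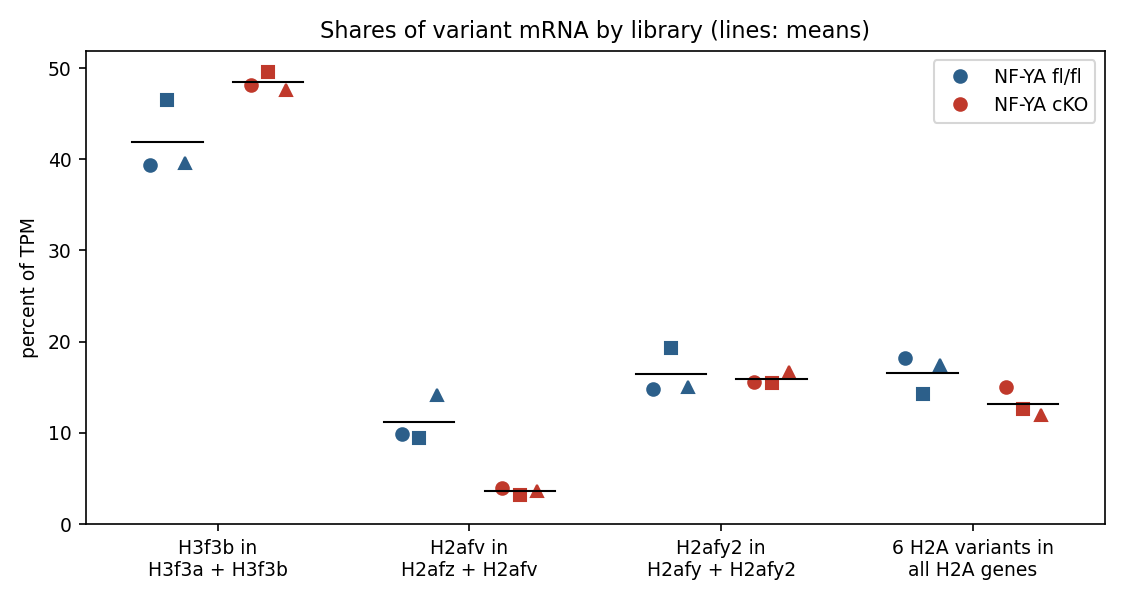
Shares of variant mRNA in percent of TPM (vertical axis, from 0) in each NF-YA fl/fl library (blue) and NF-YA cKO library (red), with group means as lines and replicates 1, 2 and 3 as circles, squares and triangles. The groups are apart for H3f3b in H3.3 mRNA and for H2afv in H2A.Z mRNA, at means of 3.60% and 11.2% for the latter, and overlap for H2afy2 and for the variants among all H2A genes.

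Genes that carry, place or read the variants were counted by list, against the same 10.3% of all genes higher and 9.97% lower. Among 17 chaperones, which bring histones to DNA, 10 passed as higher and 1 as lower, and 5 were called. These were Nasp, which holds free H3 and H4 (log2 fold change 1.53, SE 0.13), Chaf1b and Chaf1a, subunits of the CAF-1 complex that loads canonical H3 behind the replication fork (1.39, SE 0.12, and 1.1, SE 0.12), Asf1b, which hands H3 and H4 to other chaperones (1.35, SE 0.14), and Dek (1.12, SE 0.16). The H3.3 loaders themselves did not pass, with a log2 fold change of 0.36 for Hira (FDR = 0.111 in edgeR), 0.20 for Daxx (FDR = 0.203) and -0.03 for Atrx (FDR = 0.887). The chaperone that fell was Ubn2, a partner of HIRA (-0.78, SE 0.13, FDR = 0.00501).

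Of 13 genes of the complexes that exchange H2A.Z, 4 passed as higher, Ruvbl2 and Ruvbl1, the paired ATPases (log2 fold change 1.0, SE 0.13, and 0.81, SE 0.09), Yeats4 (0.92, SE 0.12) and Actl6a (0.90, SE 0.12). In edgeR 0 passed as lower and 0 were called, while 3 were lower at an unadjusted p under 0.05, and DESeq2 passed 6 as higher and 0 as lower. The motor subunits Srcap and Ep400 had log2 fold changes of -0.49 (FDR = 0.0479) and -0.32 (FDR = 0.0464). Anp32e, which removes H2A.Z and was counted among the chaperones, rose by 0.82 on the log2 scale (SE 0.13).

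In the list of H2AX signalling 5 of 12 genes passed as higher and 1 as lower. Brca1, a repair protein that gathers at breaks, was called at a log2 fold change of 1.24 (SE 0.24, FDR = 0.00713 in edgeR). The others were Atr, a kinase that phosphorylates H2AX (0.67), Rnf168, a ubiquitin ligase (0.58), Mdc1, which binds phosphorylated H2AX (0.50), and Baz1b, a kinase of H2AX (0.45). Trp53bp1, which encodes 53BP1, fell by 0.44 on the log2 scale (FDR = 0.00528), and the kinase gene Atm was at 0.45 (FDR = 0.0149).

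Splicing factors and poly(ADP-ribose) enzymes linked to macroH2A1 went both ways, with 3 of 9 genes higher and 2 lower. The list also named the splicing factor gene Qki, which the data did not hold under that symbol, so it was not tested. Rbfox2, a splicing regulator, was called lower (log2 fold change -1.68, SE 0.24, FDR = 0.00264 in edgeR), as 7.67% of all genes were. It was measured at 209 ± 8.70 CPM in the NF-YA cKO libraries and 670 ± 242 CPM in the NF-YA fl/fl libraries (SD, n = 3 each). The RNA helicase genes Ddx17 (-0.78, FDR = 0.00975) and Ddx5 (0.62, FDR = 0.00470) passed in opposite directions. Parp1 and Parp2, which make poly(ADP-ribose), rose by 0.71 and 0.82 on the log2 scale (FDR = 0.00546 and 0.00184), and Mbnl1 was at -0.02 (FDR = 0.954).

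Among 9 genes that mark or read H3, 2 passed as higher and 1 as lower. Cbx3, which encodes HP1 gamma, was called (log2 fold change 1.03, SE 0.13), Whsc1, an H3K36 methyltransferase, was at 0.62 (SE 0.09), and Kdm5b, an H3K4 demethylase, at -0.78 (SE 0.16). Zmynd11, a reader of methylated H3.3, was at 0.05 (FDR = 0.717 in edgeR). Of 6 tested genes in a list of other histone genes outside the main clusters, Hist4h4 (1.77, SE 0.27) and Cenpa, the centromeric H3 (1.5, SE 0.15), passed as higher and were called, and H1f0, a linker histone of resting cells, was at 0.48 (FDR = 0.0117). In edgeR 0 of the 6 passed as lower, 0 were lower at an unadjusted p under 0.05, and DESeq2 passed 4 as higher and 0 as lower. Hist3h2a, Hist3h2ba and Hist4h4 of this list are also among the clustered genes counted above. The 11 proliferation genes that passed were all called, with the largest log2 fold changes in Mcm5 (1.63, SE 0.22) and Mcm3 (1.54, SE 0.15), helicase subunits of replication, Ccnb1 (1.46, SE 0.19), a mitotic cyclin, Pcna (1.43, SE 0.12), Bub1 (1.39, SE 0.22) and Aurkb (1.36, SE 0.22).

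**Figure D5:**
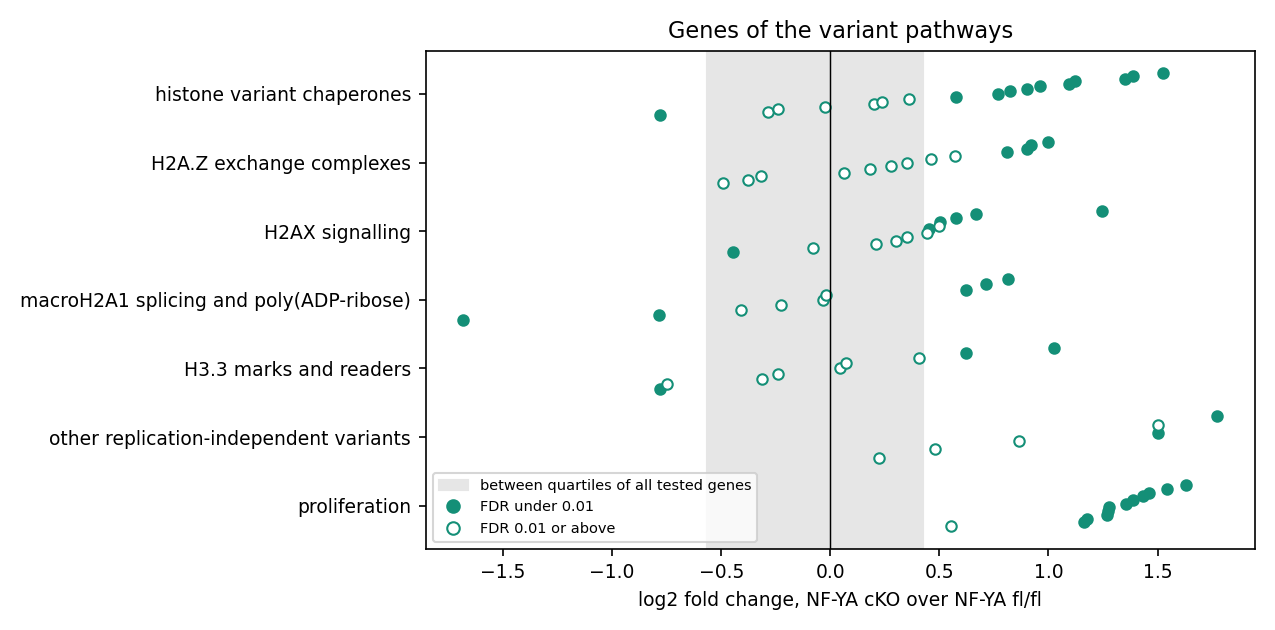
Log2 fold change in NF-YA cKO over NF-YA fl/fl (horizontal axis) of every tested gene in 7 lists, 1 point a gene, filled where the FDR is under 0.01. Proliferation genes and most chaperones lie right of the grey band between the quartiles of all genes, and Rbfox2 is the leftmost point at -1.68.

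Genes related to the variants by name were low. H2afy3 was at 4.06 ± 0.336 CPM in the NF-YA cKO libraries and 5.79 ± 1.65 CPM in the NF-YA fl/fl libraries (SD, n = 3 each), with overlap. H3f3c, H2afb1 and H2afb3 had at most 3 counts in any library, and H2afb2 had 0 in all 6, which allows up to 0.0705 to 0.115 CPM (3 counts, counting error only).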

How the data were processed

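SC cultures of NF-YA cKO mice (3 libraries) and of NF-YA fl/fl mice (3 libraries) were compared by RNA-seq, with groups taken from the genotype in the labels. Stranded total RNA libraries were aligned by the authors to the mouse transcriptome (mm10) with bowtie2. The deposited expected counts were made by the authors with RSEM, which splits a read shared by several transcripts or gene copies, so they need not be whole and are not normalized. The TPM deposited beside them divide by effective length and keep no depth, and the deposited percent is the share of each transcript in the TPM of its gene.

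Expected counts were rounded, features above 10 counts in 2 libraries or more were retained, and genotypes were compared with edgeR 4.0.16 in R 4.3.3 (TMM scaling and the quasi-likelihood test in a model of genotype alone, adjusted by Benjamini-Hochberg over all genes or all transcripts). Transcript usage was tested with diffSpliceDGE of edgeR. CPM are counts relative to TMM-scaled library size, 3 counts being 0.0705 to 0.115 CPM. The SE is the log2 fold change over the square root of F. Shares were compared with exact two-sided permutation tests. The limits on counts, FDR and fold follow the study's methods, which used DESeq2 for the test. The p-values measure the spread between these libraries, and the sources used here do not say that each came from a separate animal.

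The genes, lists and exon forms were chosen with earlier results of these data known. Named were the 8 variant genes, every H2afy transcript, transcripts of other variants with 10% or more of a gene's TPM, up to 6 called genes of each list by size of change (or, under 2 called, the 2 largest changes at 10 CPM or more), the most abundant marker of each cell type, and the 3 genes most correlated with each variant. Nfya, Pax7, Xist, Ddx3y, the lesser transcripts and all other named list genes were named outside this rule, after their values were seen. Coordinates are from GENCODE and promoters from RefSeq, both GRCm38. Fits were tested on simulated counts. Alternatives were DESeq2 1.42.0, other scalings and filters, limma 3.58.1 on log2(TPM + 1), log2(TPM + 0.1) and with weights by genotype, unrounded counts, an FDR under 0.05, the replicate number as a block and leaving out each library. Plots were drawn with matplotlib.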

Additional observations from a re-analysis of the deposited data

How the results depend on the processing

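Of the 8 variant genes, the 5 that passed as higher became 2 with limma on log2(TPM + 1) or log2(TPM + 0.1), and 1 to 6 when each library was left out, with 1 (H2afz) without NF-YA cKO replicate 2. In the other alternatives, the replicate block aside, there were 4 to 6, and 0 passed as lower in all 18. Over all genes, limma on log2(TPM + 1) passed 363 as higher and 994 as lower, against 1787 and 1729. Deviations of same-numbered libraries from their genotype means correlated at 0.165, -0.0693 and 0.0527. Differently numbered libraries were not compared, so these values cannot settle whether the replicate numbers pair the libraries. With the number as a replicate block 3 variant genes passed. For the shares, the block gave the same differences with an exact sign-flip permutation p of 0.25 or above, and 0.25 is the smallest p it can give.

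Of H2afy transcripts, DESeq2 passed 1 as higher and 2 as lower, and an FDR under 0.05 passed 1 as higher, where edgeR passed 0. Over the leave-one-out fits H2afv lay between -0.199 and 0.0421, the latter without NF-YA fl/fl replicate 3, and the H2afy transcripts of 5862, 2122 and 2129 nt lay between -0.373 and 0.727, -2.06 and 1.77, and -0.529 and 1.2. The transcript of 5865 nt lay between -11.8 and -1.72, the former without NF-YA cKO replicate 2, the only NF-YA cKO library with rounded counts of it, so that the fitted value depends on the prior count. The macroH2A1.2 transcript of 1962 nt lay between 2.24 and 4, the latter without fl/fl replicate 2. Under the replicate block those of 2122 and 2129 nt turned to 0.68 and -0.178, and under weights by genotype or the block those of 5865 and 1962 nt moved to between -4.74 and -4.46 and between 3.79 and 5.16. The share of H2afy2 turned to 1.07 percentage points by expected counts and lay between -1.32 and 0.918 over the leave-one-out fits. Over all H2afy transcripts, a denominator chosen after the data were seen, the macroH2A1.1 share differed by -40.5 points. The other shares kept their direction. Over the alternatives the genes that passed as higher numbered 3 to 11 among chaperones, 0 to 7 in H2A.Z exchange, 0 to 8 in H2AX signalling, 0 to 3 in the macroH2A1 and H3 lists, 0 to 4 among other histone genes and 2 to 12 in proliferation. The causes were not tested. The biological coefficient of variation was 0.310 in NF-YA fl/fl and 0.105 in NF-YA cKO, and no test here varied the depth.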

Other observations

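The genes whose log2 CPM followed each variant most closely over the 6 libraries, among 9449 genes compared, were Hirip3, Hmgb3 and Rgl2 for H2afx (Pearson r of 0.999 each), Ash2l, Psmg1 and Sec11c for H2afz (0.998 to 0.999), and Nup214, Plcg1 and Aqr for H2afv (0.988 to 0.990). For H2afj they were Arpc4, Ier5l and Urb2, for H2afy BC055324, Usp1 and Cnot2, and for H3f3b Xrn2, Ckap5 and Mcmbp, with r of 0.997 or above. For H2afy2 they were Cxcl12, Fancm and Tk1, and for H3f3a Bola2, Rpl7 and Nol8, with r of 0.996 or above. These values describe 6 libraries of 2 genotypes, in which any gene that differs between genotypes follows the others that do.

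The marker lists are set beside the 10.3% of all genes tested that passed as higher and the 9.97% that passed as lower. Of the 10 genes of satellite cells and myoblasts, 2 passed as higher and 2 as lower. The most abundant, Des, the desmin gene, was lower, at 327 ± 41.2 CPM in the NF-YA cKO libraries and 1392 ± 158 CPM in the NF-YA fl/fl libraries (SD, n = 3 each). Of 8 genes of fibro-adipogenic progenitors 1 passed as higher, Lum (FDR = 0.00841 in edgeR). The most abundant of them, Col1a1, did not pass (FDR = 0.358 in edgeR). It was at 1302 ± 151 against 890 ± 529 CPM, with overlap. Of 5 tested endothelial genes 1 passed as higher, Kdr, at 8.20 ± 2.58 against 1.29 ± 0.201 CPM. Of 6 Schwann cell genes 3 passed as higher and 1, Erbb3, as lower, at 9.11 ± 1.59 against 129 ± 24.1 CPM. Of 5 tested genes of pericytes and smooth muscle 1 passed as lower, Acta2, at 705 ± 89.7 against 1616 ± 197 CPM.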
